A study of Mus musculus with 12 samples.

Results

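Ribosome footprints were compared with total RNA in CD4+ T cells of mice homozygous for Rasgrp1Anaef, using 6 of the 12 libraries of the series: 2 footprint pools (3B and 4B) and 4 total RNA libraries (5 to 8). The libraries were chosen by their genotype and assay labels. All cells came from lymph nodes of 12-week-old C57BL6 mice and were purified by negative selection with magnetic beads. The other 6 libraries, from WT/WT mice of the same strain and age, are used only to ask whether a ratio differed between the genotypes. Total RNA came from 20000 cells per sample, captured with a bead kit for polyadenylated mRNA. For footprints, samples of 1 genotype were pooled 2 by 2, treated with cycloheximide for 1 minute, digested with micrococcal nuclease and spun through a sucrose cushion. The labels do not say which mice stand behind which library, so p-values measure the spread between these libraries. Both footprint libraries being pools, the spread between single mice is not seen in them.

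Rasgrp1 encodes an exchange factor that loads Ras with GTP after T cell receptor signalling, and Anaef is a missense allele of it. A translating ribosome shields a short stretch of mRNA from nuclease. Sequencing these stretches shows where and how often ribosomes sit, and dividing by the RNA level of the same gene gives its ribosome occupancy, which depends on how often translation starts and on how fast ribosomes move. Resting T cells are small, hold little cytoplasm and are known to keep some mRNAs in store until activation.

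Footprint pools held 2868943 and 3464868 counts, and total RNA libraries between 18580747 and 39467754. Nuclear protein-coding genes took 91.7% to 94.1% of footprint counts but 43.7% to 55.3% of total RNA counts. Pseudogenes took 20.7% to 26.7% of total RNA counts and about 1.22% of footprint counts, and mitochondrial genes 17% to 25% against 0.36% to 0.98%. Of 782 long non-coding RNA rows with at least 400 total RNA counts over the 4 libraries, 772 (98.7%) had no footprint count in either pool, among them Malat1, Gas5 and Neat1. The same held for 3.88% of 8947 protein-coding genes. The footprint columns are named as masked. The sources used here do not say what was masked, so a footprint count of 0 cannot be told apart from a masked gene. Bounds given below for genes without a footprint hold only for genes that were not masked.

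The cells carried the markers of CD4+ T cells. Cd3d, Cd3e, Cd3g, Cd4, Lck, Lat, Il7r, Tcf7, Lef1 and Ccr7 summed to 5169 to 7071 CPM (counts per 1000000 counts) in total RNA and to 4949 to 5051 in footprints. Markers of other cells were low except for antibody and plasma cell genes and Pecam1. The sum over 6 CD8, NK and gamma-delta genes lay between 22.1 and 41.3 CPM in all 6 libraries, that over 6 myeloid and dendritic genes between 12.2 and 25, and Col1a1, Col3a1, Hba-a1 and Hbb-bs were at or near 0. Igkc, which encodes the constant part of antibody kappa chains, was at 318 to 717 CPM in total RNA, 1921 in pool 3B and 683 in pool 4B. These are bulk samples, in which fewer cells of a type and less RNA per cell cannot be told apart.

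The ratio of footprints to total RNA varied over a wide range. Of 21008 protein-coding nuclear genes, 11854 had enough counts to be tested. A gene is called here when its adjusted p in edgeR's quasi-likelihood test is under 0.05. At that threshold 6717 genes (56.7%) were called, 2588 (21.8%) higher in footprints and 4129 (34.8%) lower. The excess of lower calls was not seen with limma-voom, which called 2253 higher and 2186 lower. At least 2-fold differences made up 2278 (19.2%) and 3796 (32%) of the tested genes. In 3505 genes (29.6%) both pools lay above all 4 total RNA libraries, and in 4969 (41.9%) both lay below. The median log2 ratio was -0.44, the quartiles were -2.30 and 0.97, and 5% of genes lay below -7.96. Zero on this scale is set by the scaling between libraries, not by an absolute amount: with RLE size factors the median was -0.31 and with total counts -0.63. Ratios below are therefore read against the median of all genes, and counts called in a list against the 21.8% and 34.8% of all genes. Across genes, log2 CPM of the 2 pools had a Pearson correlation of 0.971, and pairs of total RNA libraries 0.897 to 0.933. These correlations describe the libraries and have no test, since genes are not replicates. Without pool 4B 4351 genes were called, and without pool 3B 4513. Of the genes named below, Hk2, Hspa1a, H2-K1, Cd3e, Ptcra, Akt1s1, Dusp1 and Atp6v0b were not called when either pool was left out. Gapdh and Snrpd2 were not called without 4B, nor Dusp6 without 3B. With limma-voom, Gapdh, Cd3e, Ptcra, Akt1s1, Dusp1, Atp6v0b and Hist3h2a were not called.

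**Figure D1:**
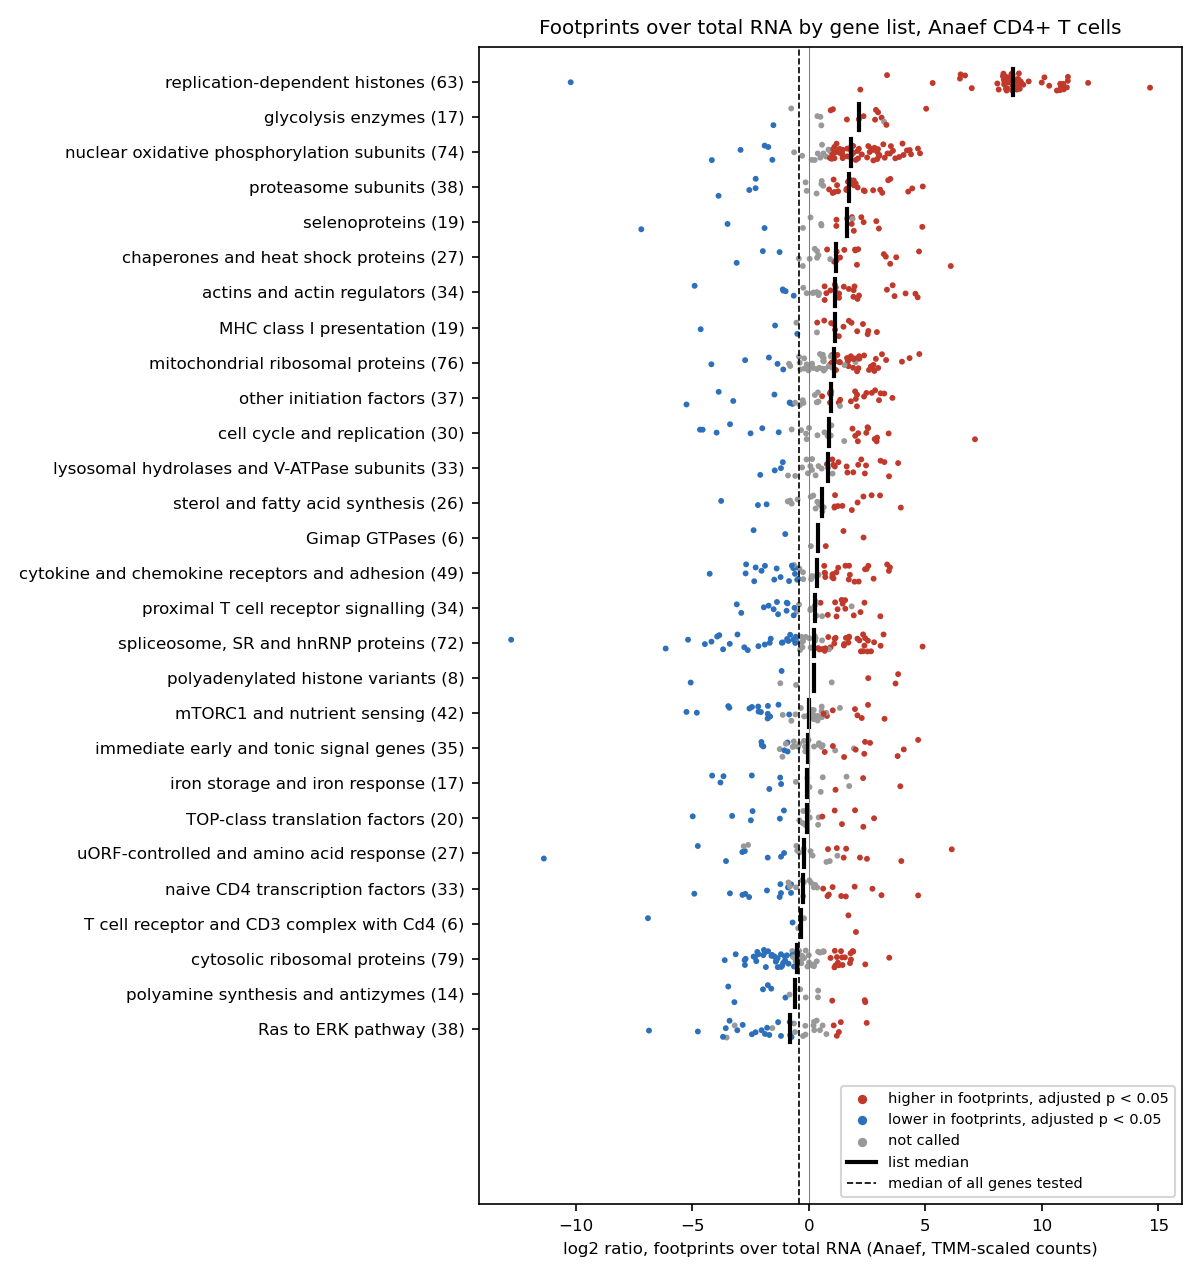
Log2 ratio of footprints over total RNA in Anaef cells (x axis) for each tested member of 28 gene lists (y axis, number tested in brackets). Red and blue points passed an adjusted p of 0.05 in edgeR's test, grey points did not, the black bar is the list's median and the dashed line the median of all 11854 genes (-0.44). Replication-dependent histones stand far to the right (median 8.75), and the Ras to ERK pathway has the lowest median (-0.80).

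Histone genes had by far the most footprints per RNA count. Replication-dependent histone mRNAs, which package newly made DNA, are the one class of animal mRNA that ends in a conserved stem-loop and not in a poly(A) tail. Of 68 listed genes 63 were tested, 62 were higher in footprints and 1 was lower, with a median log2 ratio of 8.75. Together the listed genes summed to 118, 183, 216 and 419 CPM in the 4 total RNA libraries, and to 65984 and 74808 CPM in the 2 pools. The sums of the 2 assays do not come near each other. The total RNA was captured by its poly(A) tail and the footprints were not. Whether the capture sets these ratios was not tested.

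The stem-loop itself is shown for 6 members, chosen after their values were seen to span histone classes and ratios. Capitals mark the 16-base match to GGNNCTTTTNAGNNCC, searched on the sense strand of the annotated 3′ UTR:
Hist1h1c: ccaaaaGGCTCTTTTCAGAGCCaccac
Hist1h3b: cccaaaGGCTCTTTTCAGAGCCaccca
Hist2h2ac: caaaaaGGCTCTTTTTAGAGCCaccaa
Hist1h4d: accaaaGGCCCTTTTCAGGGCCactac
H2afx: cacaaaGGCCCTTTTAAGGGCCaccac
Hist3h2a: accaaaGGCTCTTTTCAGAGCCaccca
On GRCm38, with GENCODE M21 transcripts, these windows lie in 3′ UTRs at chr13:23739506-23739532 (plus strand), chr13:23752814-23752840 (plus), chr3:96220413-96220439 (minus), chr13:23581944-23581970 (plus), chr9:44335234-44335260 (plus) and chr11:58955166-58955192 (plus). The motif was found in 40 of the 63 tested list members, in 0 of 8 polyadenylated histone variants and in 11 (0.093%) of 11779 other genes. Those 11 genes had a median log2 ratio of -0.91. Of the 23 histone genes without a match, 15 have no annotated 3′ UTR (median 8.97), and the 8 others had a median of 8.87. Members with and without an annotated match thus had similar medians.

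Hist1h1b, a linker histone, had 0 counts in all 4 total RNA libraries and 258 and 282 CPM in the pools, at least 5899.8-fold higher against a floor of 3 counts over the 4 libraries. Hist1h2aa had 1 total RNA count against 560 footprint counts, 6831 times as many after scaling (95% counting interval 1221 to 270280). Hist1h1c was at 0.82, 2.94, 2.80 and 2.46 CPM in total RNA and at 1055 and 1364 in the pools, a log2 ratio of 9.0 (SE 0.37). Both pools stood far above every total RNA library. H2afx, which marks DNA breaks and is known to be made in both a stem-loop and a polyadenylated form, was at 9.58, 13.8, 7.53 and 11.9 CPM in total RNA and at 391 and 463 in footprints, a log2 ratio of 5.32 (SE 0.26). The smallest rise was that of Hist2h2be, at 14.6, 18, 25.8 and 27.7 CPM in total RNA and 107 and 93.2 in the pools, a log2 ratio of 2.21 (SE 0.31). Its annotated 3′ UTR of 2192 bases holds no match to the motif. Hist3h2a went the other way, with 25.8, 2.09, 13.4 and 8.85 CPM in total RNA. It had no footprint in either pool, at least 20.4-fold lower if it was not masked. Histone genes resemble each other closely: a median of 87.2% of the 28-base words of their coding sequences also occur in another annotated gene, so reads cannot be assigned to single members with confidence.

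Polyadenylated histone variants, which replace the others outside DNA replication, had far smaller ratios. Of 8 tested, 3 were higher and 2 lower, with a median of 0.22. H3f3a, encoding H3.3, was at 159, 322, 274 and 257 CPM in total RNA and 1318 and 1656 in footprints, a log2 ratio of 2.55 (SE 0.25). H3f3b, which encodes the same protein, had 3.84 (SE 0.22). H2afz, encoding H2A.Z, was lower, at 196, 192, 157 and 237 CPM against 81.9 and 92.8, a log2 ratio of -1.16 (SE 0.23). Cenpa, the centromeric variant, had 41.4 to 73.0 CPM in total RNA and 3.07 and 0 in the pools, a log2 ratio of -5.06 (SE 0.76).

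**Figure D2:**
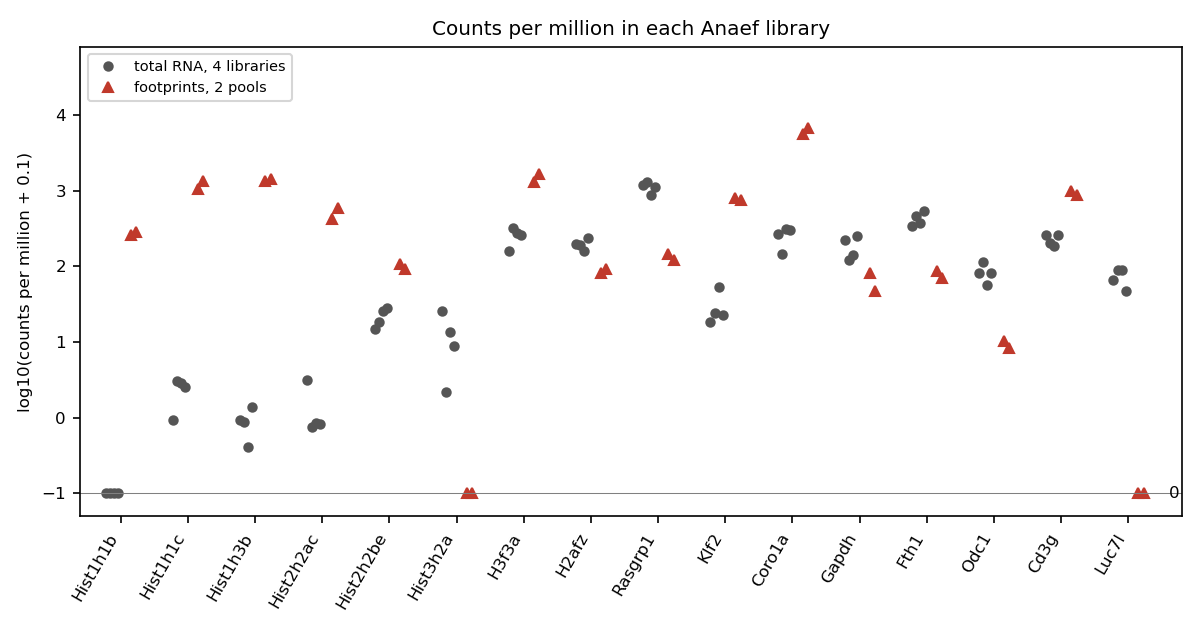
CPM in each of the 4 Anaef total RNA libraries (grey circles) and 2 footprint pools (red triangles) for 16 genes, on a log10 scale after adding 0.1, with the line at the bottom marking a count of 0. Hist1h1b has no total RNA count and 258 and 282 CPM in footprints, while Hist3h2a and Luc7l have no footprint count.

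Ribosomal protein genes showed no common direction. Their mRNAs begin with a run of pyrimidines, the 5′ terminal oligopyrimidine (TOP) motif, through which mTORC1 controls their translation, and resting cells are known to hold part of them off polysomes. Of 82 listed cytosolic ribosomal protein genes, 79 were tested, 19 were higher, 33 were lower and 27 were not called. The median was -0.49, beside -0.44 for all genes, and 21.8% and 34.8% of all genes were called higher and lower. Rps13 was at 71.5, 83.9, 92.8 and 117 CPM in total RNA and 563 and 419 in footprints, a log2 ratio of 2.43 (SE 0.23). Rpl12 lay at the other end, at 1021, 1575, 854 and 1241 CPM against 145 and 46.8, a log2 ratio of -3.60 (SE 0.47). Rpl31 had -3.13 (SE 0.25) and Rps6, the target of S6 kinases and the member with the most total RNA, -2.25 (SE 0.22), with total RNA of 1779 to 2907 CPM and footprints of 502 and 492. These genes have many processed pseudogenes: a median of 97.5% of their coding words occur in another annotated gene. The sources used here do not say how reads that match both were counted, and the order of the members rests on that counting.

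**Figure D3:**
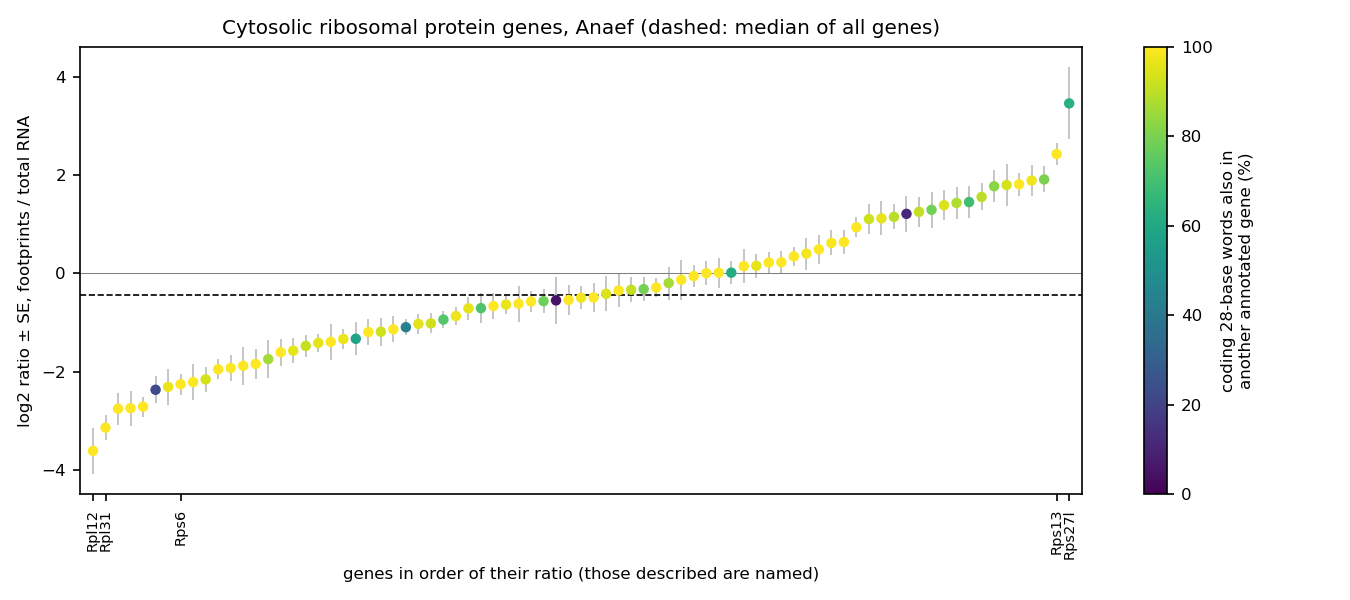
Log2 ratio of footprints over total RNA with its standard error (y axis) for the 79 tested cytosolic ribosomal protein genes in order (x axis), coloured by the share of their coding 28-base words found in another annotated gene. Members run from -3.60 (Rpl12) to 3.46 (Rps27l) on both sides of the dashed median of all genes, and 75 of 79 share over 50% of their words.

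Pyrimidine runs near the annotated start are shown for 3 ribosomal protein genes and 1 translation factor, from RefSeq promoters on GRCm38.p6. Whether the mRNAs begin at these runs was not tested, so a run may be promoter sequence and not a TOP motif. Capitals mark a C followed by at least 5 pyrimidines that begins within 10 bases of the annotated start, on the gene's strand:
Rps6: gtcgggCCTCTTTTTCgtgacgcctcccag
Rpl31: tcctcgCCTCCCCgtgacccggaagttgta
Rpl12: atccgtCTTTTCggctttcggctcggagga
Eef1a1: gctccgCCCTCTTCCCgagggtgggggaga
The windows are chr4:86857345-86857374 (minus strand), chr1:39367841-39367870 (plus), chr2:32961708-32961737 (plus) and chr9:78481706-78481735 (minus). Such a run was found for 33 of 59 ribosomal protein genes with a RefSeq start, for 2234 of 9333 tested genes (23.9%) and in 19.2% of 32851 RefSeq promoters. Ribosomal protein genes with and without it had medians of -0.41 and -0.40.

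Other genes listed in the same TOP class, mostly translation factors, differed with how many coding words they share. Of 20 tested, 6 were higher and 6 lower, with a median of -0.09, which was 0.03 with RLE size factors. The 5 with under 10% shared words had a median of 1.43, with 4 higher and 0 lower. These 5 include Vim, which is not a translation factor, at 2.34 (SE 0.16). The 10 with over 50% had -0.66, with 1 higher and 5 lower. Btf3, a chaperone of nascent chains, was at 56.5, 38.4, 44.1 and 65.0 CPM in total RNA and 349 and 363 in footprints, a log2 ratio of 2.80 (SE 0.23). Eef1a1, the elongation factor that carries tRNAs to the ribosome, was at 5807, 3880, 4455 and 5795 CPM against 4349 and 3968, a log2 ratio of -0.26 (SE 0.18), not called. Per base, that is, with footprints divided by coding length and RNA by transcript length, Eef1a1 was called lower (-0.90). Tpt1 (-3.29, SE 0.38) and the elongation factor subunit Eef1b2 (-4.98, SE 0.32) were lower. Eef1b2 had 473 to 803 CPM in total RNA and 18.1 and 19.9 in the pools. Other initiation factors leaned upwards. Of 37 tested, 20 were higher and 7 lower, with a median of 0.94. Eif1b, a start codon selection factor, had 3.59 (SE 0.53) and the exon junction helicase Eif4a3 3.24 (SE 0.30). Eif4ebp2, a repressor of cap binding that mTORC1 inactivates, was at 661, 746, 419 and 547 CPM in total RNA but 18.1 and 13 in footprints, a log2 ratio of -5.24 (SE 0.34). Its coding sequence makes up 6.28% of its transcript, and this ratio is as counted, without regard to length. Eif4g2, the most abundant of them in total RNA, was lower by less, at -0.80 (SE 0.15), and not called per base (-0.26).

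Most nuclear genes for the respiratory chain and ATP synthase were higher in footprints. Of 74 tested nuclear genes for oxidative phosphorylation, 58 were higher and 5 lower, with a median of 1.82. Atp5k and Ndufa11, small subunits of ATP synthase and complex I, had log2 ratios of 4.78 (SE 0.47) and 4.69 (SE 0.37). Atp5b, the catalytic subunit of ATP synthase, was at 609, 474, 635 and 619 CPM in total RNA and 1152 and 1230 in footprints, a log2 ratio of 1.03 (SE 0.17), with both pools above all total RNA libraries. Per base Atp5b was at 0.28 and not called. Cox7a2l, an assembly factor of respiratory supercomplexes, was lower at -4.16 (SE 0.26), as was Ndufa10 at -2.92 (SE 0.33). Of Cox7a2l's coding words 81.9% occur in another gene. The 38 with under 10% shared words had a median of 1.56, with 30 higher and 3 lower.

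Mitochondrial ribosomal proteins, whose mRNAs are translated in the cytosol, had 39 higher and 5 lower of 76 tested and a median of 1.09. Mrps28 and Mrpl23 led with 4.75 (SE 0.67) and 4.33 (SE 0.77). Mrps25 was lowest at -4.18 (SE 0.30), with 282 to 444 CPM in total RNA and 20.5 and 17.1 in footprints. This ratio is as counted, and coding sequence makes up 8.5% of the Mrps25 transcript. The proteasome, which degrades ubiquitylated proteins, had 28 of 38 subunits higher and 4 lower, with a median of 1.72. Psmb10, a catalytic subunit of the immunoproteasome, was at 8.24, 17.9, 12.7 and 16.7 CPM in total RNA and 364 and 466 in footprints, a log2 ratio of 4.89 (SE 0.30). Psmd11, a lid subunit, had -3.87 (SE 0.43). The most abundant in total RNA, Psme1, had -0.13 (SE 0.26), and its groups overlapped.

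Glycolytic enzymes had 11 of 17 higher and 1 lower, with a median of 2.15. Pkm, which makes pyruvate, was at 120, 150, 168 and 186 CPM in total RNA and 1531 and 1615 in footprints, a log2 ratio of 3.33 (SE 0.19). Hk2 had the highest ratio, 5.04 (SE 1.30), on at most 0.44 CPM in any total RNA library. Gapdh was the only one lower, at 221, 120, 142 and 253 CPM against 80.9 and 47.6, a log2 ratio of -1.51 (SE 0.37). Gapdh has many pseudogene copies. A median of 53.5% of the coding words of this list occur elsewhere. Chaperones had 16 of 27 higher and 3 lower, with a median of 1.19. Hspa8, the constitutive Hsp70, was at 1909, 1742, 2675 and 2324 CPM against 4119 and 5759, a log2 ratio of 1.19 (SE 0.20) that was 0.48 and not called per base. The inducible Hspa1b and Hspa1a had 6.10 (SE 1.15) and 4.73 (SE 1.29) on under 1 CPM of total RNA, and Pfdn5 was lowest at -3.09 (SE 0.43).

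Sterol and fatty acid synthesis had 11 of 26 higher and 3 lower (median 0.57). Fasn, fatty acid synthase, was at 55.4, 59.5, 63.2 and 52.5 CPM in total RNA and 468 and 494 in footprints, a log2 ratio of 3.06 (SE 0.17), while Elovl6, an elongase, had -3.75 (SE 0.46). Lysosomal enzymes and V-ATPase subunits had 16 of 33 higher and 4 lower (median 0.83), from Atp6v1e1 at 3.84 (SE 0.42) to Atp6v0b at -2.08 (SE 0.58). Selenoproteins, which read a UGA codon as selenocysteine, had 10 of 19 higher and 3 lower (median 1.64). Gpx4, which protects membranes from peroxides, was at 12.8, 10.3, 13.7 and 17.2 CPM in total RNA and 87.1 and 131 in footprints, a log2 ratio of 3.01 (SE 0.30). Sephs2, which makes the selenium donor, had 4.87 (SE 0.54).

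Most actin cytoskeleton genes were higher in footprints. Of 34 actins and actin regulators, 22 were higher and 5 lower, with a median of 1.14. Coro1a, a coronin needed for T cell survival, was at 269, 146, 313 and 304 CPM in total RNA and 5571 and 6774 in footprints, a log2 ratio of 4.58 (SE 0.28). Arpc3, a subunit of the Arp2/3 complex that branches actin, had 4.68 (SE 0.22), while another subunit, Actr3, was at 652, 902, 884 and 781 CPM against 22.5 and 31.7, a log2 ratio of -4.89 (SE 0.27). Arpc2 (-1.11, SE 0.18) and Arhgdib (-1.09, SE 0.14) were lower too. So the subunits of 1 complex stood on both sides. MHC class I and its loading machinery had 14 of 19 higher and 3 lower (median 1.13). Tap2, a subunit of the peptide transporter, had 2.93 (SE 0.19) and the chaperone Calr 2.56 (SE 0.17). H2-K1 was at 4595, 4443, 4864 and 5384 CPM against 6007 and 6412, a log2 ratio of 0.37 (SE 0.13). Per base of coding sequence and transcript, H2-K1 had -0.10 and was not called, nor was it when scaled by total counts (0.18). H2-T22, a class Ib gene, was lowest at -4.64 (SE 0.42).

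The antigen receptor complex was split. Of 6 tested members with Cd4, 2 were higher and 2 lower, with a median of -0.32 that was 0.11 per base. Cd3g was at 262, 201, 188 and 262 CPM in total RNA and 990 and 869 in footprints, a log2 ratio of 2.03 (SE 0.19), and Cd3d had 1.70 (SE 0.26). Cd3e, which pairs with both, was lower, at 1391, 2032, 1302 and 1373 CPM against 941 and 947, a log2 ratio of -0.69 (SE 0.21) that was -0.34 and not called per base. Cd4 had -0.45 (SE 0.23), and its groups overlapped. When scaled by total counts it was called lower (-0.63). Ptcra, the pre-receptor chain of thymocytes, had 1.25 CPM of total RNA on average and no footprint, at least 2.19-fold lower if it was not masked. Its call was lost with DESeq2 (adjusted p 0.092).

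Proximal receptor signalling had 13 of 34 higher and 12 lower (median 0.29), beside 21.8% and 34.8% of all genes. Zap70, the kinase that binds the phosphorylated receptor, was at 36.3, 33.8, 50.2 and 51.2 CPM in total RNA and 337 and 386 in footprints, a log2 ratio of 3.07 (SE 0.23). The adaptor Grap2 had 2.39 (SE 0.29). The adaptor Sh2d2a was at 816, 1053, 831 and 1037 CPM against 120 and 101, a log2 ratio of -3.09 (SE 0.21), and Pag1, which recruits the inhibitory kinase Csk, had -2.89 (SE 0.27). Ptprc, which encodes CD45 and had the most total RNA, had 0.09 (SE 0.16). Per base it was called lower, at -0.48.

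Rasgrp1 belongs to the Ras to ERK pathway. Of its 38 tested members 5 were higher and 18 lower, beside 21.8% and 34.8% of all genes. Their median was -0.80, beside -0.44 for all genes, the lowest of the lists in the plot of ratios by gene list. The difference between these medians, -0.37 and between -0.44 and -0.24 without 1 library at a time, was not tested. Rasgrp1 itself was at 1185, 1297, 879 and 1132 CPM in total RNA and 147 and 122 in footprints, a log2 ratio of -3.06 (SE 0.23, edgeR adjusted p 7.2e-06). Both pools lay far below all 4 total RNA libraries. In WT its ratio was -2.29, and the difference between genotypes, -0.72 (unadjusted p 0.016, adjusted p 1.00), was not called. Since Anaef is a missense allele, these levels do not check the genotype labels. The small GTPase Nras was the lowest member: it was at 410, 538, 568 and 476 CPM in total RNA and 3.41 and 5.29 in footprints, a log2 ratio of -6.85 (SE 0.32). This ratio is as counted, and coding sequence makes up 12.8% of the Nras transcript. Dgkz, a diacylglycerol kinase that opposes Rasgrp1, had -3.68 (SE 0.29). Dgka, its relative and the most abundant member in total RNA, had -0.24 (SE 0.14) and was not called. Dgka was called lower per base (-0.89) and when scaled by total counts (-0.43). The phosphatase Dusp6, an ERK feedback inhibitor, was highest at 2.49 (SE 0.62), with 3.07 to 27.3 CPM of total RNA and 87.4 and 76.9 in footprints. Rasa3, which switches Ras off, had 1.38 (SE 0.16).

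Among 42 genes of mTORC1 and nutrient sensing, 8 were higher and 15 lower, close to the 21.8% and 34.8% of all genes. Their median of 0.01 was -0.17 when scaled by total counts. Nprl2 and Akt1s1, both inhibitors of the pathway, had 3.25 (SE 0.65) and 2.55 (SE 0.97), the latter not called when scaled by total counts (2.34). Rps6kb2, an S6 kinase, was at 63.3, 63.7, 54.5 and 70.1 CPM in total RNA and 1.71 and 2.85 in footprints, a log2 ratio of -4.80 (SE 0.40).

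Transcription factors and immediate early genes spread widely. Klf2, which keeps T cells quiescent and recirculating, stood out: it was at 18.1, 24, 53.6 and 22.6 CPM in total RNA and 795 and 747 in footprints, a log2 ratio of 4.70 (SE 0.39). Of 35 immediate early and tonic signal genes 10 were higher and 6 lower, with a median of -0.01, which turned to 0.11 with RLE size factors and 0.50 per base. Junb, a subunit of AP-1, was at 5.05, 5.88, 13.1 and 11 CPM against 148 and 151, a log2 ratio of 4.08 (SE 0.39). Zfp36, which destabilises cytokine mRNAs, was lower at -1.95 (SE 0.21), as were the corepressor Nab1 (-2.03, SE 0.35) and the phosphatase Dusp1 (-2.01, SE 0.50). Of 33 transcription factors of naive CD4 cells, 10 were higher and 12 lower, with a median of -0.23 that was 0.18 per base. Id2 had 3.12 (SE 0.47). Klf3 (-3.38, SE 0.29) and the E protein Tcf12 (-4.91, SE 0.31) were lower. Tcf7, which encodes TCF1, was at 2824, 2444, 2171 and 2554 CPM in total RNA and 728 and 716 in footprints, a log2 ratio of -1.79 (SE 0.16).

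Surface receptors had 21 of 49 higher and 17 lower (median 0.37), beside 21.8% and 34.8% of all genes. The inhibitory receptor Pdcd1 and the chemokine receptor Cxcr4 led, at 3.49 (SE 0.48) and 3.44 (SE 0.29). Cxcr4 was at 19.3, 26.5, 28.4 and 42.3 CPM in total RNA and 286 and 348 in footprints. Il6st, the shared subunit of the IL-6 receptor family, was at 944, 1186, 998 and 893 CPM against 53.3 and 52.5, a log2 ratio of -4.25 (SE 0.22), and Ifngr2 had -2.71 (SE 0.48). The 6 tested Gimap genes, GTPases of lymphocyte survival, ran from Gimap9 at 2.35 (SE 0.20) to Gimap3 at -2.36 (SE 0.22). Proliferation genes had 12 of 30 higher and 7 lower (median 0.88). Mcm3, a subunit of the replicative helicase, was at 24.2, 15.4, 28 and 29.9 CPM against 251 and 276, a log2 ratio of 3.43 (SE 0.27), and Cdk1 had 7.13 (SE 0.93) on under 1 CPM of total RNA. Cdk6 (-4.66, SE 0.40) and Tyms, thymidylate synthase (-4.55, SE 0.37), were lower. Ccnd2, cyclin D2, was called lower as counted (-1.29, SE 0.18) and higher per base (0.56).

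Splicing factors were found on both sides. Of 72 tested, 30 were higher and 25 lower, with a median of 0.24. The core Sm proteins Snrpd3 and Snrpd2 led, at 4.89 (SE 0.41) and 3.21 (SE 0.83). Luc7l2, which helps choose 5′ splice sites, was at 475, 715, 502 and 541 CPM in total RNA and 9.22 and 6.51 in footprints, a log2 ratio of -6.14 (SE 0.32). Its relative Luc7l had 66.6, 90.6, 89.5 and 47.2 CPM and no footprint, at least 134-fold lower if it was not masked. Srrm2, the most abundant in total RNA, had -0.27 (SE 0.15) and was not called. It was called lower per base (-1.15) and when scaled by total counts (-0.45).

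Genes known for control through their 5′ UTR were examined next. Ferritin mRNAs carry a hairpin, the iron-responsive element, to which iron regulatory proteins bind and block initiation when iron is scarce. Both ferritin chains were lower: Fth1 was at 338, 462, 371 and 538 CPM in total RNA and 86.4 and 70.8 in footprints, a log2 ratio of -2.44 (SE 0.26), and Ftl1 at 90.8, 47.6, 111 and 98.1 CPM against 38.2 and 36.2, at -1.22 (SE 0.36). Of Ftl1's coding words 96.0% occur in another gene. Capitals mark the loop, CAGTGN:
Fth1: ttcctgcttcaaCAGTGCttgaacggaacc
Ftl1: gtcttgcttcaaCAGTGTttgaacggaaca
The windows lie in 5′ UTRs at chr19:9982732-9982761 (plus) and chr7:45459778-45459807 (minus). The 6 letters alone are common: they occur in the 5′ UTR of 23% of 11549 tested genes. In the iron list as a whole 3 of 17 were higher and 7 lower, beside 21.8% and 34.8% of all genes. Its median of -0.06 was 0.07 with RLE size factors. Aco1, an iron regulatory protein, was highest at 3.93 (SE 0.33), and the mitochondrial iron importer Slc25a37 lowest at -4.14 (SE 0.41).

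Upstream open reading frames (uORFs) can capture ribosomes before the main start codon. Polyamine genes hold known cases, and their list had 3 of 14 higher and 6 lower (median -0.59). Of all genes 21.8% and 34.8% were called higher and lower. Relative to all genes the list's median was -0.16, and 0.37 among genes with under 10% shared words. Odc1, the first enzyme of polyamine synthesis, was at 82.8, 114, 57.5 and 82.3 CPM in total RNA and 10.2 and 8.14 in footprints, a log2 ratio of -3.19 (SE 0.38). Of the coding words of Odc1 84.4% occur in another gene. Azin1, which protects that enzyme from degradation, was at 33.7, 38.4, 42.3 and 32.9 CPM against 3.07 and 3.66, at -3.45 (SE 0.41). The first upstream start codon that meets a stop codon within the 5′ UTR is shown for both and for 2 other genes, with ATG in capitals. Rasgrp1 was added because of its role in the study and Atf4 as a gene known for uORF control:
Odc1: tggtgcgtctccATGacgacgtgctcg
Azin1: tccccgcagcctATGgcccaggccgcc
Atf4: cacttttctctcATGgggcctttagga
Rasgrp1: ggcggccgagggATGcgcggcgcccgg
They lie at chr12:17544909-17544935 (plus), chr15:38519004-38519030 (minus), chr15:80255291-80255317 (plus) and chr2:117342768-117342794 (minus). The annotated 5′ UTRs hold 2, 3, 2 and 1 such frames. The Atf4 frame shown has 36 codons before its stop. Frames that run on into the coding sequence were not searched for. Whether the frames shown are the ones known to control these genes was not tested. Atf4, the activator of the amino acid response, had a log2 ratio of -1.19 (SE 0.40).

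The list of uORF-controlled and amino acid response genes had 8 of 27 higher and 8 lower (median -0.21), beside 21.8% and 34.8% of all genes. Slc35a4 was at 236, 139, 206 and 228 CPM in total RNA and 10.6 and 4.07 in footprints, a log2 ratio of -4.76 (SE 0.43). Slc7a11, the cystine transporter, had 23.4 to 31.6 CPM in total RNA and no footprint, at least 48.3-fold lower if it was not masked. Phgdh, which starts serine synthesis, was higher at 3.97 (SE 0.38). Cebpb, at 0 to 0.22 CPM in total RNA and 7.85 and 7.33 in footprints, had 6.14 (SE 1.19). So the named list did not share a direction.

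Over all tested genes, in contrast, more upstream frames went with a lower ratio. The median log2 ratio was -0.13 for 6830 genes with none, -0.62 with 1, -0.96 with 2 to 3 and -1.49 for 1138 genes with 4 or more. The genes were also split by 5′ UTR length. In each of 5 length classes, genes with a frame had the lower median. The medians were -0.85 against 0.08 in the shortest class and -1.06 against -0.90 in the longest. The 3′ UTR showed a larger trend. Over 5 classes of equal size, medians went from 0.40 for the shortest 3′ UTRs to -1.39 for the longest, and 9.38% and 52.4% of that last class were called higher and lower. Ribosomes sit on the coding region while RNA reads can come from the whole transcript. When each count was divided by coding length for footprints and transcript length for RNA, the rank correlation with 3′ UTR length went from -0.26 to -0.06, and that with the number of frames from -0.18 to -0.16. These correlations run across 11846 genes with an annotated transcript and are descriptions without a test. Other features of the genes were not held fixed, and the causes of these trends were not tested. All 6 libraries share 1 annotation, and 1 transcript per gene stands in for those the cells made.

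**Figure D4:**
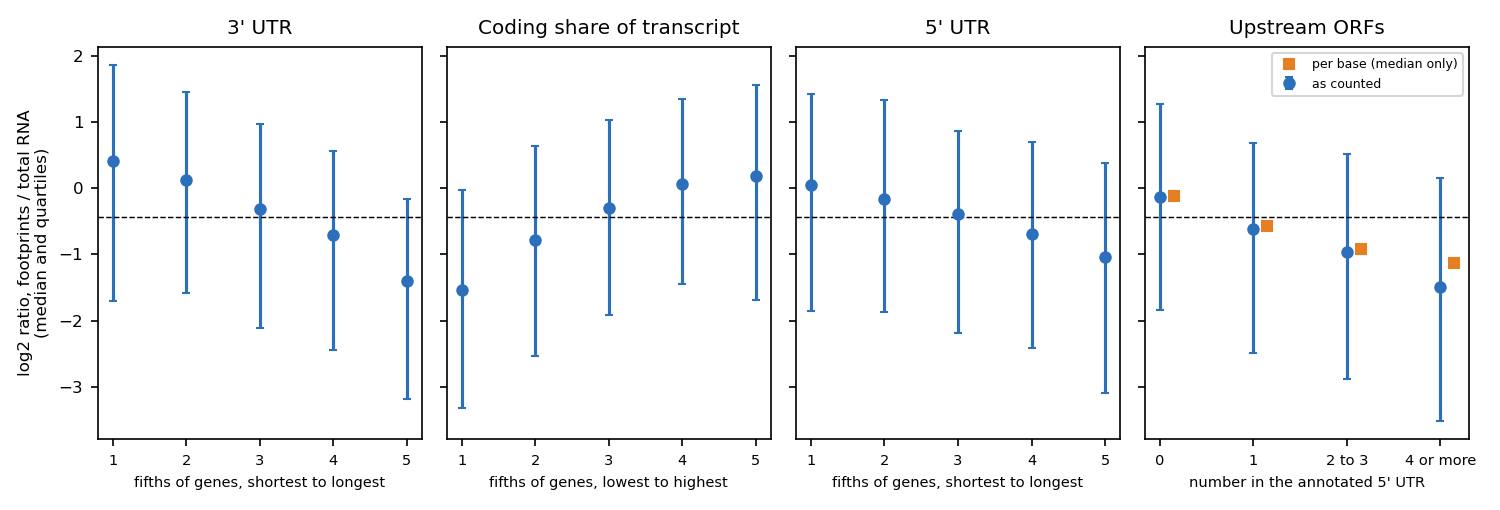
Median and quartiles of the log2 ratio of footprints over total RNA (y axis) in 5 classes of genes by 3′ UTR length, coding share and 5′ UTR length, and by the number of upstream open reading frames. Orange squares, drawn only for the number of upstream open reading frames, give the median per base. The median runs from 0.40 to -1.39 across 3′ UTR classes, and from -0.13 to -1.49 across uORF classes (dashed line: all genes, -0.44).

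The ranking was read at both ends. By a rule (called, pools and RNA libraries apart, at least 20 CPM on average, counts in both pools, no histones) the 10 highest were Ifi27l2b, Actc1, Aldoart2 and 7 predicted genes. Actc1, cardiac actin, had at most 0.17 CPM in total RNA and 110 and 352 in the pools, a log2 ratio of 12.0 (SE 0.75), and Aldoart2 is a retrocopy of the aldolase gene. Both belong to families with abundant members in the same cells, Actb and Aldoa, although 2.26% and 18.8% of their coding words occur in another annotated gene. The 7 predicted genes, such as Gm21738 with 982 CPM in pool 3B and 13.4 in pool 4B, were all far higher in pool 3B than in 4B. Of 5677 genes with at least 20 CPM in footprints, 17 differed over 4-fold between the pools, and all 17 were higher in 3B.

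A ranking of genes with at least 20 CPM in both assays and under 10% shared words was chosen after the values were seen. Klf2, Acta1, Coro1a, Crip1 and Tmsb4x were among its highest. Acta1 is, like Actc1, an actin gene of the family of Actb. The sources used here do not say how reads that match several actin genes were counted. The ratio of Acta1 rests on that counting. Tmsb4x, which binds free actin, was at 871, 677, 591 and 1048 CPM against 14450 and 13972, at 4.16 (SE 0.21). Further genes of that set were the thioredoxin inhibitor Txnip (3.86, SE 0.23), the integrin linker Tln1 (3.62, SE 0.16) and non-muscle myosin Myh9 (3.60, SE 0.18).

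The 10 lowest genes by the same rule were G530012D18Rik, Plppr3, Slc38a6, Fam189b, Atf1, Cnot2, Spopl, Brd2, Ankrd11 and Myo1h, with log2 ratios from -10.2 to -7.28. Brd2, a bromodomain protein, was at 333, 468, 454 and 450 CPM in total RNA and 3.07 and 1.63 in footprints, a log2 ratio of -7.47 (SE 0.36). Ankrd11, a chromatin regulator, was at 986, 643, 873 and 743 CPM against 4.44 and 5.29. With at least 20 CPM in both assays the lowest were Smc4, a condensin subunit (-5.60, SE 0.32), Prpf38b (-5.18, SE 0.25), Fam160b2, Msl1 and the splicing factor Rbm5. Kmt2a, a histone methyltransferase, was at 2114, 1873, 1922 and 1960 CPM against 127 and 105, at -4.08 (SE 0.18). In 119 of 6354 genes at or above 20 CPM of total RNA no footprint was counted in either pool. They were led by Degs2, Gm5148, Gm20721, Zfp488 and Tlcd1. Degs2, a sphingolipid enzyme, had 457 to 548 CPM of total RNA and was at least 909-fold lower if it was not masked. Whether these genes were masked is not known. The 339 tested genes named Zfp, mostly zinc finger proteins, a list added after the values were seen, had 42 higher and 127 lower, beside 21.8% and 34.8% of all genes, and a median of -0.73 beside -0.44.

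Markers of other cells were mixed. Of 24 tested B and plasma cell genes 2 were higher and 7 lower, beside 21.8% and 34.8% of all genes. Jchain, the joining chain of secreted antibodies, was at 40.4, 38, 18.3 and 28.7 CPM in total RNA and 558 and 171 in footprints, a log2 ratio of 3.55 (SE 0.44). Mzb1, an antibody chaperone, had 7.95. Cd22 had no footprint, at least 24.2-fold lower if it was not masked, and Ms4a1 and Pax5 were lower. Antibody constant genes were counted outside the protein-coding set, in a fit over all rows of the table. Of 12 tested 75% were higher and 16.7% lower. Among all 18032 rows tested in that fit, 2953 were higher and 9153 lower. Igha, a heavy chain, had 60.3 to 121 CPM in total RNA, 2374 in pool 3B and 765 in pool 4B. The heavy chain Ighm went the other way, at 817 to 1490 CPM against 431 and 197, a log2 ratio of -1.97 (SE 0.37). Of 13 tested CD8, NK and gamma-delta genes 3 were higher, with Ctsw at 2.83 (SE 0.39) and Prf1 at 3.22 (SE 0.38), and of 12 tested myeloid, stromal and erythroid genes 1 was higher and 4 lower. The part of such cells in the ratios was not tested.

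The Anaef pattern lay close to that of WT cells. There 7740 of 11723 genes (66%) were called, 27.7% higher and 38.4% lower. Over 11452 genes tested in both genotypes, 91.6% of ratios had the same sign, 6135 were called in the same direction and 0 in opposite directions. These counts use separate libraries for each genotype. The difference of the ratios, tested as an interaction over all 12 libraries, passed in 0 of 12370 genes by edgeR (0%). An unadjusted p under 0.05 was reached by 557 genes (221 higher and 336 lower in Anaef), and the smallest adjusted p was 0.18. DESeq2 called 6, limma-voom 0. A test that finds no gene with 2 pools per genotype does not show that the ratios are equal.

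The 5 genes with the smallest p did not pass in edgeR and were among the 6 of DESeq2. Their CPM below were scaled over all 12 libraries. Gnb1, a G protein subunit, had footprints of 42.2 and 45.1 CPM in Anaef and 101 and 120 in WT, on total RNA of 191 to 223 and 149 to 194, a difference in log2 ratio of -1.58 (SE 0.24). Tcf7 had footprints of 737 and 728 CPM in Anaef against 984 and 1158 in WT, while total RNA was 2216 to 2884 in Anaef and 1845 to 1969 in WT, a difference of -0.96 (SE 0.19). For Tcf7 neither footprints nor total RNA overlapped between genotypes: the Anaef pools lay below and the Anaef RNA libraries above those of WT. Oxct1, a ketone body enzyme, had -1.38 (SE 0.29). Cnot6l, a deadenylase, had 1.44 (SE 0.27), with footprints of 12.5 and 16.6 CPM against 4.66 and 6.19, and the proteasome gene Psma3 had 1.54 (SE 0.31), with 24.6 and 28.6 against 9.15 and 7.67. The sixth gene of DESeq2, Mapkap1, a subunit of mTORC2, had -1.53 in edgeR. Without pool 4B edgeR called 1 gene, Gm17555.

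**Figure D5:**
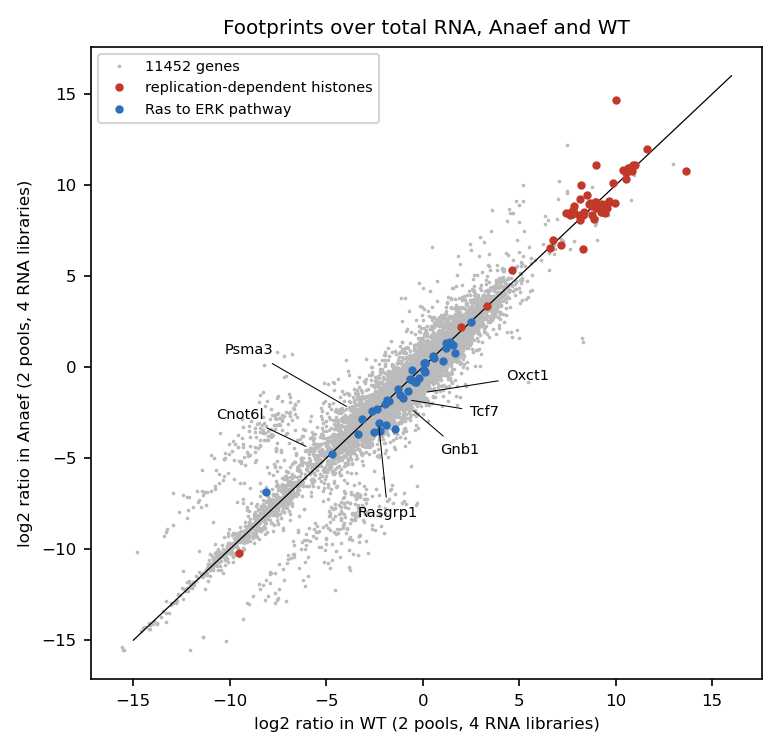
Log2 ratio of footprints over total RNA in WT (x axis) and Anaef (y axis) for 11452 genes tested in both, with the line of equality. Replication-dependent histones (red) and Ras to ERK genes (blue) lie along the line, and the 5 genes with the smallest interaction p and Rasgrp1 are named.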

How the data were processed

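Whole-number read counts per gene were used as the authors deposited them. Per the submitters' processing notes, TopHat 1.4.1, Bowtie 0.2.17 and GRCm38 were used. The sources used here do not state the counting rule, the strand setting or the masking of the footprint columns. Of 45669 rows, 263 that join several genes were left out. Gene types, UTRs and uORFs came from GENCODE M21, 1 transcript per gene. Genes passing edgeR's filterByExpr were fitted with edgeR 4.0.16 (TMM, quasi-likelihood F test, Benjamini-Hochberg over all genes tested, R 4.3.3): footprints against total RNA over the 6 Anaef libraries, the same in WT, and their interaction over 12. CPM are per 1000000 TMM-scaled counts of tested genes, except for marker and antibody genes, where all rows were scaled. DESeq2 1.42.0 and limma 3.58.1 were alternatives. Members and lists were chosen with earlier results of these data known. Named genes were the 10 highest and lowest by the rule in the text, per list the 2 highest, the 2 lowest and the most abundant, and the 5 smallest interaction p. Atf4, Dgkz, Ftl1, Mapkap1, further histones and the B cell genes other than Jchain were chosen after their values were seen. Some genes of these rules are not reported here.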

Additional observations from a re-analysis of the deposited data

Results flagged for a closer look

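Among 117 named genes with at least 20 CPM, 7 had 1 total RNA library of 4 far from the other 3 by Dixon's test at 95%, which chance alone flags in about 1 of 20 genes. Replicate 5 was low for Brd2 (333 CPM, the others 450 to 468) and 1110059E24Rik (32.3, the others 47.0 to 50.0). Replicate 6 was low for Atp5b (474, the others 609 to 635) and high for Cd3e (2032, the others 1302 to 1391) and Ptprc (7471, the others 5424 to 5590). Replicate 7 was high for Klf2 (53.6, the others 18.1 to 24), and replicate 8 for Nab1 (167, the others 89.9 to 99.4).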

How the results depend on the processing

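No paired analysis was possible because the Anaef pools (3B, 4B) and total RNA libraries (5 to 8) share no number and the labels do not say which animals entered which pool. The count of called genes in Anaef was 4439 with limma-voom and 12106 over all rows of the table (13157 in WT), and 4351 to 6869 without 1 library at a time. It stayed within 1.5 times the main 6717 with DESeq2, RLE or total count scaling, no or a stricter filter, length offset, all 12 libraries, and, chosen after seeing the data, genes with few shared words or without the 17 genes whose pools differed. Of the 6717, 4386 were called again with limma-voom and 6481 with DESeq2, 0 in the opposite direction, while per base 39 reversed. The interaction called 6 genes with DESeq2, 0 to 1 without 1 library at a time, and 0 otherwise. Leaving out antibody and receptor segments changed nothing, since they are not in the protein-coding set. List medians relative to all genes changed side for naive transcription factors (-0.15), polyamine genes (0.37), histone variants (-0.38) and B cell genes (-0.36) among genes with few shared words. Iron genes did so per base (-0.050). Without 1 library at a time, uORF genes ranged from -0.065 (pool 4B left out) to 0.40, B cell genes from -0.11 (pool 4B) to 1.05, and polyamine genes from -0.31 to 0.11 (pool 3B or total RNA 5). Cytosolic ribosomal proteins (-0.056 with all libraries) ranged from -0.24 to 0.14, and myeloid, stromal and erythroid genes (-0.17) from -0.53 to 0.14. Among genes with few shared words, the median of the TOP-class list relative to all genes went from 0.34 to 1.93. Per base, H2-K1 (-0.10), Ptprc (-0.48) and Ccnd2 (0.56) changed sign. The causes were not tested. Of the tested genes 1017 had no footprint count and 18 no total RNA count. For these only bounds hold, and for the 1017 only if they were not masked.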
